A study of Homo sapiens with 12 samples.

Results

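The lysosome was followed through 42 of its genes, taken by symbol from the 27788 symbols with deposited counts. They code for 10 proteases, 8 glycosidases, 5 sulfatases, 7 proteins of lipid breakdown and sterol export, 4 membrane proteins, 4 parts of the proton pump, and 4 other proteins, namely the regulators TFEB and TFE3, progranulin (GRN) and the autophagy receptor SQSTM1. All 42 were found in the counts and in the FPKM values (fragments scaled to gene length and library size). The high level of CTSD, the gene of cathepsin D, in GSTO1 KO cells of the U-87 MG line was the reason for looking at these genes, so CTSD in that line is described without a test. The question put to the other 41 was whether the rest of the lysosome moved with it. These members and the further lists below were also chosen with earlier results of these data known. Their counts beside the shares of all genes are therefore descriptions.

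RNA was sequenced from U-87 MG, a line from a human glioblastoma, and HCT116, a line from a human colorectal carcinoma, each as GSTO1 KO and as wild type (WT), with 3 libraries in each of the 4 groups. GSTO1 codes for glutathione S-transferase omega 1, a cytosolic enzyme that uses glutathione to reduce its substrates. Per the labels' protocols, stable Cas9 lines were made with a lentivirus and blasticidin, a crRNA against exon 2 of GSTO1 or a crRNA without a target was brought in with tracrRNA, and single colonies were screened for the loss of GSTO1. Whether WT libraries came from unedited cells or from cells given the crRNA without a target, and how many colonies and cultures stand behind a group, the sources used here do not give. The p-values therefore measure the spread between libraries, which may be technical, and the difference between GSTO1 KO and WT cannot be told apart from a difference between colonies.

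Lysosomes are acidic, membrane-bounded compartments in which hydrolases break down proteins, glycans, lipids and nucleic acids delivered by endocytosis and autophagy. The hydrolases are made in the endoplasmic reticulum and sorted to lysosomes largely by mannose 6-phosphate receptors, and a proton pump, the V-ATPase, keeps the lumen acidic. The transcription factors TFEB and TFE3 bind an E-box with the core CACGTG in the promoters of many lysosomal genes, and their activity is set mainly by phosphorylation and by movement into the nucleus, which RNA levels do not show.

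Libraries held 17814142 to 28097179 counts. GSTO1 had 25.2 to 26.7 CPM (counts scaled to a common library size) in U-87 MG KO libraries, against 124 to 152 CPM in WT libraries, and 13.8 to 15.98 CPM in HCT116 KO libraries, against 57.8 to 61.03 CPM in WT libraries. Of 10 epithelial markers, 8 were above 0.5 FPKM in HCT116 KO and in HCT116 WT cells, while the intestinal genes CDH17 and VIL1 were near 0. In HCT116, 4 of the 8 tested epithelial markers were called higher in KO cells and 0 lower, where 7.82% and 4.07% of all tested genes were. The 4 were CDH1 (16.0 FPKM in KO and 9.17 in WT cells), CLDN4 (46.1 and 24.8), ELF3 (22.9 and 11.5) and ESRP1 (44.8 and 30.7). By adjusted p alone, 2 of the 8 were lower. The more abundant KRT8 (855 FPKM in KO and 976 in WT cells), KRT18 (442 and 519) and KRT19 (414 and 438) had lower means in KO cells. The sum of the 10 was 1886 to 2081 FPKM in KO libraries and 2068 to 2188 FPKM in WT libraries. The leukocyte markers of HCT116 summed to 1.24 to 1.53 FPKM in KO libraries and 0.298 to 0.381 FPKM in WT libraries, and the mesenchymal and glial markers to 10.4 to 11.5 FPKM in KO libraries and 8.49 to 8.73 FPKM in WT libraries. Of 10 mesenchymal and glial markers, 7 were above 0.5 FPKM in U-87 MG KO and in U-87 MG WT cells, led by VIM and FN1, while the glial genes GFAP, OLIG2 and S100B were near 0. Of 10 leukocyte markers, 1 passed 0.5 FPKM in U-87 MG KO and in U-87 MG WT cells (CSF1R), 1 in HCT116 KO cells (ITGAX) and 0 in HCT116 WT cells. In U-87 MG the 10 leukocyte markers summed to 3.12 to 3.60 FPKM in KO libraries, against 4.61 to 4.90 FPKM in WT libraries, with CD3E and TYROBP at 0, and the mesenchymal and glial markers to 6769 to 6866 FPKM in KO libraries, against 7369 to 8054 FPKM in WT libraries. The members of that last sum differed in direction, with VIM at 3116 FPKM in KO and 3980 in WT cells, and FN1 at 2297 FPKM in KO and 2037 in WT cells. TNC was at 141 FPKM in KO and 240 in WT cells, COL1A1 at 261 and 461, and COL1A2 at 577 and 472. Of the 8 tested in U-87 MG, 0 were called higher and 2 lower, where 8.06% and 8.15% of all tested genes were. By adjusted p alone, 2 of the 8 were higher and 3 lower, where 25.4% and 28.2% of all tested genes were. The part of such marker differences in the results was not tested. U-87 MG WT replicate 3 stood apart from the other WT libraries of its line, with a chi-square of 8.21 and 9.31 per degree of freedom against them, where the other replicate pairs of the study gave 1.48 to 5.56. In HCT116, replicate 3 was also the most distant of its group. It gave 5.56 and 5.40 in KO cells, against 1.80 between replicates 1 and 2, and 3.63 and 3.46 in WT cells, against 1.48.

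In U-87 MG KO cells, CTSD and 11 other members stood more than 1.5-fold higher than in WT cells, most of them hydrolases. By adjusted p alone, with no threshold on the fold, 26 members other than CTSD were higher, among them CTSB, the membrane protein LAMP2 and SQSTM1, where 25.4% of all tested genes were higher by that rule. CTSD averaged 2538 ± 62.3 CPM in KO cells and 936 ± 14.6 CPM in WT cells (SD, n = 3 each). Of the 39 other members that could be tested, 11 were called higher and 0 lower, where 8.06% of all 13741 tested genes were called higher and 8.15% lower. To be called, a gene needed a fold above 1.5, a mean above 0.5 FPKM and an adjusted p (edgeR, over all tested genes) under 0.05. All 39 tested members passed that FPKM minimum, while the share of all genes includes genes under it, which could not be called. Without the minimum, 1556 of all tested genes were called higher and 1360 lower, and 11 and 0 of the members. The 11 are CTSA, CTSC, CTSK, CTSS, GAA, NEU1, MAN2B1, SGSH, ASAH1, PSAP and GRN, and apart from PSAP and GRN all code for hydrolases. In HCT116, 2 of 41 tested members were called higher, ARSA and GRN, and 0 lower, where 7.82% of all 14068 tested genes were called higher and 4.07% lower.

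**Figure D1:**
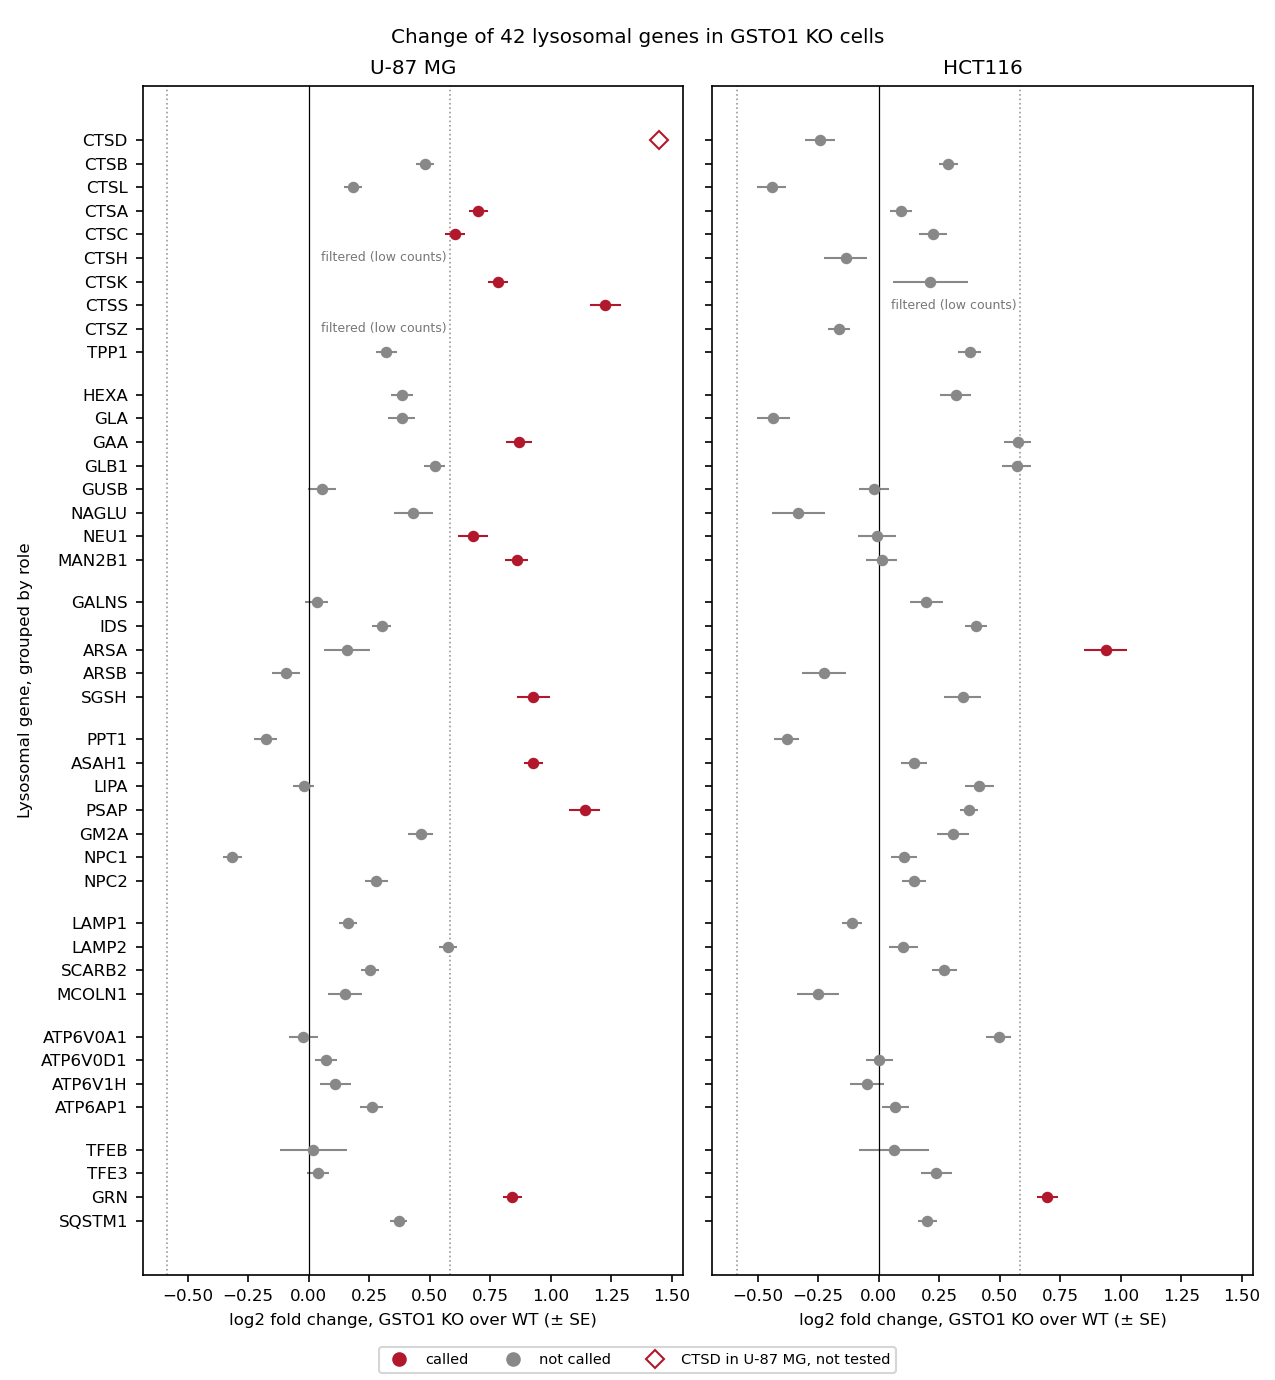
Log2 fold change (GSTO1 KO over WT, with its standard error) of each of the 42 genes, grouped by role, in U-87 MG on the left and HCT116 on the right, with dotted lines at 1.5-fold. In U-87 MG 11 tested genes are called (red), all to the right of 0, while the 4 membrane proteins and the 4 pump genes lie short of the right dotted line, and in HCT116 the called genes are ARSA and GRN.

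The promoters show the E-box in a part of the members on either side of these calls. RefSeq promoter windows on GRCh38.p14 (250 bases before to 50 after a start site) were at hand for 31 of the 42 genes, as 39 windows. CACGTG, which reads the same on both strands, was in 9 of the 39 windows (23.1%) and in 7.26% of 35116 windows of all genes. The longer TCACGTGA, a subset of these sites, was in 6 windows (15.4%), against 0.98% of all windows. Of the 11 genes called higher in U-87 MG, 6 had a window and 3 of these held CACGTG (CTSA, GAA and NEU1). Of the 28 tested genes that were not called, 22 had a window and 5 of these held CACGTG (GALNS, ARSB, LAMP1, MCOLN1 and ATP6V0D1). The stretches below are those of CTSD, of the 3 called genes and, for contrast, of LAMP1 and MCOLN1, which hold the E-box and were not called. They run 5′ to 3′ along the gene's strand, with CACGTG in capitals, and are the minus strand of chr11:1763949-1763994 for CTSD, the plus strand of chr20:45891273-45891334 for CTSA, the plus strand of chr17:80101485-80101575 for GAA, the minus strand of chr6:31862922-31862967 for NEU1, the plus strand of chr19:7522563-7522623 for MCOLN1 and the plus strand of chr13:113297027-113297243 for LAMP1.
CTSD: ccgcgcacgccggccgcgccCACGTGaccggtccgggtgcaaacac
CTSA: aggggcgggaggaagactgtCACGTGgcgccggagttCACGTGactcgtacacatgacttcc
GAA: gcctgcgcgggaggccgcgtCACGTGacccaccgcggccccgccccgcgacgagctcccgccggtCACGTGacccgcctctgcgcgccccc
NEU1: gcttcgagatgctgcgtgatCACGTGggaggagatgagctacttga
MCOLN1: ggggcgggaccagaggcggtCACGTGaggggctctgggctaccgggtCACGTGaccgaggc
LAMP1: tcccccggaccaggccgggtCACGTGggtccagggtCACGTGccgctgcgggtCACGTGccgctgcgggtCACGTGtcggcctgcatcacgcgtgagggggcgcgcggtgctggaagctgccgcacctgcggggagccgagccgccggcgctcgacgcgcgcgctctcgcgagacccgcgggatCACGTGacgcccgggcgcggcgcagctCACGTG
LAMP1 held 6 copies of CACGTG and its log2 fold change in U-87 MG was 0.16, whereas CTSD and NEU1 held 1 copy and CTSA, GAA and MCOLN1 held 2. The 33 tested genes nearest to LAMP1 on chromosome 13 had a median log2 change of -0.80 in U-87 MG, and those nearest to MCOLN1 one of -0.02. The part of these stretches in the values of LAMP1 and MCOLN1 was not tested. A match is a description of the letters in the window and says nothing of binding in these cells.

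Among the proteases of U-87 MG cells, CTSD, an aspartic protease, had 2466, 2577 and 2571 CPM in KO libraries, against 935, 951 and 921 CPM in WT libraries. The KO libraries were all far above the WT libraries, a difference of 1.45 on the log2 scale or 2.73-fold. CTSS, a cysteine protease known for processing the invariant chain in antigen-presenting cells, had 67.2, 64.3 and 64.4 CPM in KO libraries, against 30.6, 27.6 and 26.1 CPM in WT libraries. The groups were separate and CTSS rose by 1.22 (log2, SE 0.065, adjusted p = 3.31e-13 by edgeR). CTSK, the collagen-degrading cathepsin of osteoclasts, had 352, 363 and 359.5 CPM in KO libraries, against 218, 209 and 201 CPM in WT libraries. It rose by 0.78 (SE 0.041, adjusted p = 2.69e-13), with no overlap.

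CTSA, a serine carboxypeptidase that also protects NEU1 and β-galactosidase from degradation, had 1026, 1088 and 1080.3 CPM in U-87 MG KO libraries, against 628, 653 and 693 CPM in WT libraries. The lowest KO library was above the highest WT library, and CTSA rose by 0.70 (SE 0.040, adjusted p = 1.23e-12, edgeR). NEURL2 lies antisense over 14.9% of the exon bases of CTSA, and the sources used here do not say whether the counting used strand. CTSC, a dipeptidyl peptidase that activates serine proteases of immune cells, had 157, 159.7 and 155 CPM in KO libraries, against 106, 104 and 102 CPM in WT libraries. It rose by 0.60 (SE 0.043, adjusted p = 4.76e-11), just past the 1.5-fold threshold. With limma on log2(FPKM + 1) the change of CTSC was 0.56, which ended the call.

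The remaining proteases moved less in U-87 MG or were hardly expressed there. CTSB, a cysteine protease, averaged 1228 ± 14.5 CPM in KO cells and 885 ± 41.2 CPM in WT cells, a log2 change of 0.48 with an adjusted p of 2.24e-10 (edgeR, n = 3 each) that stayed under 1.5-fold. TPP1, which cuts tripeptides from protein ends, changed by 0.32 and CTSL, another cysteine protease, by 0.18, with adjusted p of 1.41e-06 and 2.76e-04. CTSZ, a carboxypeptidase, and CTSH, an aminopeptidase, did not pass the low-count filter in U-87 MG. CTSZ had 0.153, 0.102 and 0 CPM in KO libraries, against 0.0936, 0.154 and 0.0502 CPM in WT libraries. CTSH had 0 counts in all 3 KO libraries, against 6, 6 and 11 counts in WT libraries. With 3 counts as the upper limit for the KO group and the WT counts taken as exact, CTSH came out at least 7.34-fold lower in KO cells. The counting error of the WT counts is not in that figure. CTSH averaged 0.199 FPKM in WT cells, under the minimum of 0.5 FPKM for a call.

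Of the 8 glycosidases, 3 were called higher in U-87 MG and 0 lower, and 7 were higher by adjusted p alone, where 8.06% of all tested genes were called higher and 25.4% were higher by adjusted p alone. GAA, the acid α-glucosidase that degrades glycogen, had 74.4, 76.5 and 75.3 CPM in KO libraries, against 43.3, 41.1 and 40.1 CPM in WT libraries. MAN2B1, an α-mannosidase of N-glycan breakdown, had 114, 113 and 120.0 CPM in KO libraries, against 62.9, 65.8 and 63.4 CPM in WT libraries. NEU1, the lysosomal sialidase, had 93.1, 93.5 and 93.9 CPM in KO libraries, against 56.98, 65.8 and 52.9 CPM in WT libraries. In all 3 genes the groups were separate, and the NEU1 libraries of WT cells were spread more widely than those of KO cells. The log2 changes were 0.87 for GAA (SE 0.055, adjusted p = 6.59e-12), 0.86 for MAN2B1 (SE 0.049, adjusted p = 1.07e-12) and 0.68 for NEU1 (SE 0.063, adjusted p = 1.12e-08, edgeR). GLB1 (β-galactosidase) changed by 0.52, NAGLU (heparan sulfate breakdown) by 0.43, and HEXA (the α subunit of β-hexosaminidase) and GLA (α-galactosidase A) by 0.38 each, short of 1.5-fold. RPL36A lies antisense over 8.99% of the exon bases of GLA, and TMPPE on the same strand over 5.84% of those of GLB1. GUSB (β-glucuronidase) averaged 54.7 ± 1.78 CPM in KO cells and 52.8 ± 2.76 CPM in WT cells, with overlapping libraries and an adjusted p of 0.421.

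The sulfatases of U-87 MG, which remove sulfate from glycosaminoglycans and sulfatide, were split. SGSH, the sulfamidase of heparan sulfate breakdown, had 41.5, 45.3 and 45.3 CPM in KO libraries, against 23.8, 22.7 and 23.2 CPM in WT libraries. Every KO library was well above every WT library, and SGSH rose by 0.93 (SE 0.068, adjusted p = 7.57e-11, edgeR). IDS, the iduronate sulfatase, changed by 0.30 (adjusted p = 8.85e-07) and stayed under 1.5-fold. GALNS and ARSB, which act on other glycosaminoglycans, changed by 0.03 and -0.09, with adjusted p of 0.559 and 0.164. ARSA, the arylsulfatase of sulfatide breakdown, had 18.1, 20.3 and 16.97 CPM in KO libraries, against 17.9, 14.7 and 17.3 CPM in WT libraries, and the groups overlapped (log2 change 0.16, adjusted p = 0.151).

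In lipid breakdown, PSAP and ASAH1 rose in U-87 MG. PSAP, the precursor of the saposins that present sphingolipids to their hydrolases, had 2900.2, 3014 and 3020.3 CPM in KO libraries, against 1422, 1446 and 1202 CPM in WT libraries. Its KO libraries were all above its WT libraries, of which replicate 3 was the lowest, and PSAP rose by 1.14 (SE 0.064, adjusted p = 2.80e-07, edgeR). ASAH1, the acid ceramidase, had 253, 253 and 250.3 CPM in KO libraries, against 134, 132 and 134 CPM in WT libraries. The spread within each group was small and ASAH1 rose by 0.93 (SE 0.040, adjusted p = 1.01e-14). GM2A, the GM2 activator protein, changed by 0.46 and NPC2, a soluble cholesterol carrier, by 0.28, both with an adjusted p under 0.05 and a fold under 1.5.

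The members that fell in U-87 MG were also in this class, by adjusted p alone, that is, with the same p and FPKM thresholds and none on the fold. NPC1, the membrane protein that exports cholesterol from lysosomes, averaged 232 ± 3.48 CPM in KO cells and 290.1 ± 6.8 CPM in WT cells (log2 change -0.32, adjusted p = 4.31e-07, edgeR, n = 3 each). PPT1, which removes palmitate from proteins, averaged 172 ± 3.09 CPM in KO cells and 195 ± 13.5 CPM in WT cells (-0.18, adjusted p = 2.77e-03). LIPA, the acid lipase for cholesteryl esters and triglycerides, averaged 126 ± 0.71 CPM in KO cells and 128 ± 4.58 CPM in WT cells, with overlapping libraries and an adjusted p of 0.696.

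Of the 4 membrane proteins, 3 were higher in U-87 MG KO cells by adjusted p alone, as was 1 of the 4 pump genes, each under 1.5-fold. With 8.06% of all tested genes called higher, 0 calls among 4 genes says nothing particular of either class. LAMP2, a major glycoprotein of the lysosomal membrane with a part in chaperone-mediated autophagy, was nearest to a call at 737 ± 18.5 CPM in KO cells and 497 ± 20.1 CPM in WT cells. Its log2 change was 0.58 (SE 0.039, adjusted p = 1.99e-11, edgeR), and it passed 1.5-fold without KO replicate 2 (0.59), without WT replicate 1 (0.60) and with upper-quartile scaling (0.61). SCARB2, a receptor that carries glucocerebrosidase to lysosomes, changed by 0.25, LAMP1, another membrane glycoprotein, by 0.16 and MCOLN1, a cation channel, by 0.15. Among the pump genes, ATP6AP1, an accessory subunit, changed by 0.26 (adjusted p = 5.85e-05). ATP6V1H and ATP6V0D1, subunits of the cytosolic and the membrane sector, changed by 0.11 and 0.07, and ATP6V0A1 of the membrane sector by -0.02, with overlapping libraries in all 3.

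In the last group, GRN and, by adjusted p alone, SQSTM1 rose in U-87 MG. GRN, progranulin, which is secreted and delivered to lysosomes, had 571, 624 and 615 CPM in KO libraries, against 332, 342 and 341 CPM in WT libraries. The groups were far apart and GRN rose by 0.84 (SE 0.040, adjusted p = 5.85e-14, edgeR). SQSTM1, the receptor that links ubiquitinated cargo to autophagosomes, rose by 0.37 (adjusted p = 6.90e-09), with separate libraries and under 1.5-fold. MRNIP lies antisense over 22.4% of its exon bases.

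Neither regulator was called in U-87 MG at the RNA level. TFEB had 6.22, 6.36 and 8.60 CPM in KO libraries, against 7.49, 6.33 and 7.18 CPM in WT libraries. TFE3 had 149.8, 153 and 154 CPM in KO libraries, against 141, 150.2 and 156 CPM in WT libraries. Both genes overlapped between the groups, with 1 KO library of TFEB above the rest, and their log2 changes were 0.02 (SE 0.137, adjusted p = 0.914) and 0.04 (SE 0.046, adjusted p = 0.486, edgeR).

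**Figure D2:**
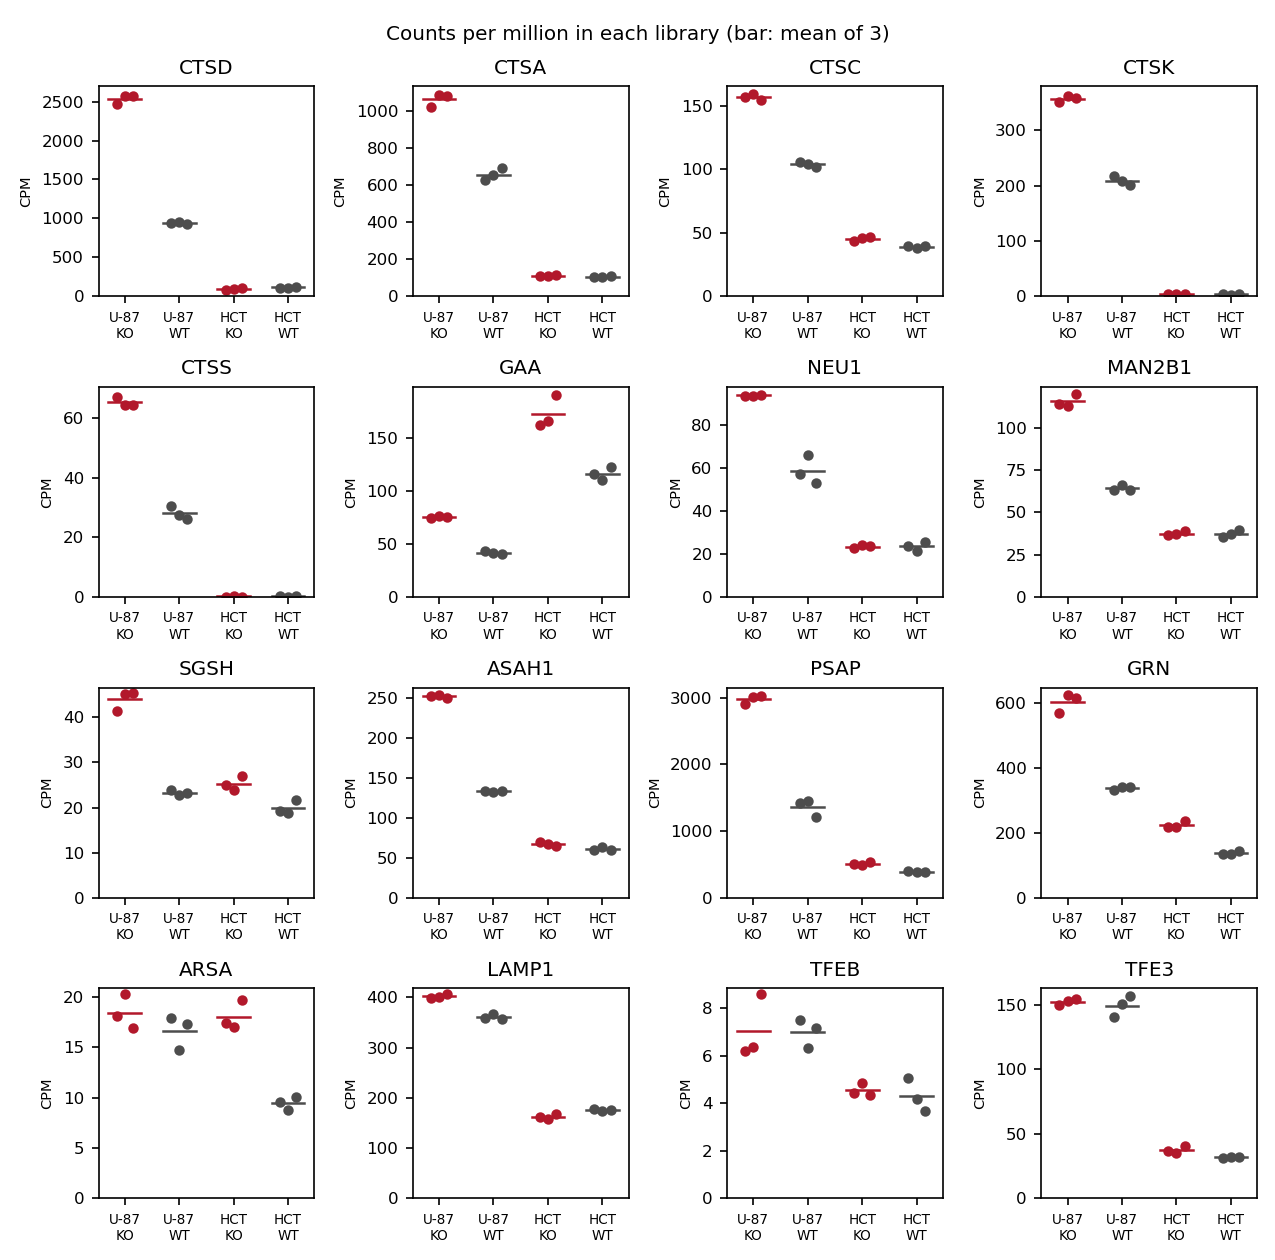
CPM (linear axes from 0) of CTSD, the other 12 members called in either line, LAMP1, TFEB and TFE3 in each of the 12 libraries, with a bar at the mean of 3, GSTO1 KO in red and WT in grey. KO points lie above WT points in U-87 MG for CTSD and the 11 called genes, while TFEB and TFE3 overlap between KO and WT in that line.

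As a whole, 34 of the 39 tested members other than CTSD had a positive log2 change in U-87 MG, where 50.7% of all tested genes did. Their median was 0.32, against 0.01 for all tested genes. By adjusted p alone, 26 members were higher and 2 lower in KO cells, where 25.4% of all tested genes were higher and 28.2% lower. KO and WT libraries were separate in 29 members, 27 with KO higher and 2 with KO lower, where 31.2% of all tested genes had KO higher and 32.8% KO lower. By role, the median was 0.60 for the proteases (7 tested), 0.48 for the glycosidases, 0.28 for lipid breakdown and sterol export, 0.21 for the membrane proteins, 0.21 for the regulators with GRN and SQSTM1, 0.16 for the sulfatases and 0.09 for the pump. The roles were not tested against each other.

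In summed FPKM, the 42 genes reached 4959, 5151 and 5159 in U-87 MG KO libraries, against 3132, 3189 and 3073 in WT libraries. CTSD made up 20.6% to 20.8% of that sum in KO libraries and 12.1% to 12.4% in WT libraries. Without CTSD the sum was 3936, 4077 and 4087 FPKM in KO libraries, against 2749.8, 2803 and 2693 FPKM in WT libraries. Without CTSD and PSAP it was 3096, 3196 and 3202 FPKM in KO libraries, against 2342, 2389.6 and 2345 FPKM in WT libraries, still with no overlap. The median over the 42 genes moved far less, at 41.1, 40.98 and 41.3 FPKM in KO libraries, against 40.4, 38.9 and 40.5 FPKM in WT libraries. A sum weighs abundant genes most, and a median of levels depends on the genes near it, so neither shows which genes rose. Below that median, CTSS, SGSH, GAA, MAN2B1 and NEU1 were called higher, while ARSA, ARSB, GUSB, MCOLN1, ATP6V0A1, TFEB and others were not. FPKM are shares of a library, so a larger share cannot be told apart from less RNA of other genes, and in bulk RNA more cells that express a gene and more RNA of it per cell cannot be told apart.

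In HCT116, ARSA and GRN rose in KO cells. ARSA had 17.4, 17.04 and 19.7 CPM in KO libraries, against 9.59, 8.76 and 10.04 CPM in WT libraries. GRN had 217, 218 and 237 CPM in KO libraries, against 134, 135 and 144 CPM in WT libraries. Both genes were separate between the groups, with log2 changes of 0.94 for ARSA (SE 0.090, adjusted p = 3.13e-08) and 0.70 for GRN (SE 0.045, adjusted p = 1.15e-10, edgeR). GRN was thus the member called in both lines.

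CTSD went the other way in HCT116. It had 84.1, 90.2 and 106 CPM in KO libraries, against 110.0, 107 and 115 CPM in WT libraries. The highest KO library lay just under the lowest WT library, and the log2 change was -0.24 (SE 0.062, adjusted p = 2.31e-03, edgeR), short of 1.5-fold. CTSL and GLA were also lower, by adjusted p alone, at -0.44 (adjusted p = 3.56e-06) and -0.43 (adjusted p = 2.04e-05), as were PPT1 at -0.38 (3.72e-06), NAGLU at -0.33 (0.0154), MCOLN1 at -0.25 (0.0190), ARSB at -0.23 (0.0426), CTSZ at -0.16 (3.43e-03) and LAMP1 at -0.11 (0.0278).

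Other members were higher in HCT116 KO cells by adjusted p alone, 20 in all with ARSA and GRN, where 25.6% of all tested genes were higher and 26.4% lower by that rule. GAA had 162, 166 and 191 CPM in KO libraries, against 116, 111 and 122 CPM in WT libraries, and its libraries were separate. GLB1 averaged 50.6 ± 1.4 CPM in KO cells and 34.04 ± 1.29 CPM in WT cells (n = 3 each). The log2 change was 0.57 in both, with adjusted p of 3.22e-08 and 8.56e-08 (edgeR). GAA passed 1.5-fold without KO replicate 1 (0.61), without KO replicate 2 (0.60) or without WT replicate 3 (0.61), and GLB1 without WT replicate 2 (0.60). ATP6V0A1 changed by 0.50, LIPA by 0.42, IDS by 0.40, TPP1 by 0.38 and PSAP by 0.37. The remaining 11 of the 20 were SGSH, HEXA, GM2A, CTSB, SCARB2, TFE3, CTSC, SQSTM1, GALNS, NPC2 and ASAH1, at 0.15 to 0.35. 

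Of the genes called in U-87 MG, CTSA, NEU1, MAN2B1 and CTSK missed an adjusted p of 0.05 in HCT116, and CTSS could not be tested there. CTSA averaged 111 ± 2.35 CPM in KO cells and 104 ± 2.46 CPM in WT cells. NEU1 averaged 23.3 ± 0.79 CPM in KO cells and 23.5 ± 2.25 CPM in WT cells. MAN2B1 averaged 37.4 ± 1.09 CPM in KO cells and 37.1 ± 2.09 CPM in WT cells. The adjusted p was 0.0819 for CTSA, 0.948 for NEU1 and 0.883 for MAN2B1 (edgeR, n = 3 each). CTSK had 3.12 to 3.62 CPM in KO libraries, against 2.69 to 3.02 CPM in WT libraries, with an adjusted p of 0.249. CTSS, with 2, 4 and 1 counts in KO libraries against 8, 2 and 5 counts in WT libraries, did not pass the low-count filter. TFEB had 4.44, 4.85 and 4.34 CPM in KO libraries, against 5.07, 4.18 and 3.69 CPM in WT libraries, which overlapped (0.06, adjusted p = 0.725). TFE3 had 36.7, 35.1 and 40.3 CPM in KO libraries, against 31.4, 31.9 and 31.7 CPM in WT libraries, a log2 change of 0.24 (SE 0.065, adjusted p = 3.65e-03) under 1.5-fold.

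In HCT116, 28 of 41 members had a positive log2 change, where 50.8% of all tested genes did, and the median was 0.15, against 0.01 for all tested genes. With limma on log2(FPKM + 1) that median was 0.056. KO libraries were separate and higher in 23 members and separate and lower in 8, where 31.6% and 30.0% of all tested genes were. In summed FPKM, the 42 genes reached 1142, 1155 and 1215 in KO libraries, against 1096, 1076 and 1096 in WT libraries. The median over the 42 genes was 14.97, 15.5 and 15.6 FPKM in KO libraries, against 13.1, 13.0 and 13.2 FPKM in WT libraries. CTSD made up 3.19% to 3.77% of the sum in KO libraries and 4.44% to 4.68% in WT libraries.

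The KO effect differed between the lines in a part of the members. In the test of the difference (U-87 MG minus HCT116, edgeR, all 12 libraries), 9 of 41 members were called higher and 2 lower, where 7.24% of all 15613 tested genes were called higher and 9.66% lower. Of these members, CTSS did not pass the low-count filter within HCT116, nor CTSH within U-87 MG, so each entered through the other line. By adjusted p alone, 19 members were higher and 6 lower, where 19.3% and 20.2% of all tested genes were. CTSD, which was not tested here, differed by 1.68. The glycosidases MAN2B1, GLA, NAGLU and NEU1 had effects that were higher in U-87 MG by 0.84 (adjusted p = 2.27e-10), 0.81 (3.27e-09), 0.75 (4.75e-04) and 0.68 (2.50e-06). ASAH1 and PSAP differed by 0.77 (1.43e-11) and 0.76 (1.01e-09), and CTSL and CTSA by 0.61 (3.03e-09) and 0.60 (8.95e-10). GLA, NAGLU and CTSL were higher in KO than in WT cells of U-87 MG and lower in KO than in WT cells of HCT116, each with an adjusted p under 0.05 in its line. Without HCT116 KO replicate 1, CTSL was at 0.58 and no longer past 1.5-fold, and CTSA was between 0.57 and 0.58 without HCT116 WT replicate 3, U-87 MG KO replicate 2 or U-87 MG WT replicate 1.

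The other 3 differences were those of CTSS and CTSH, which had low counts in HCT116 or U-87 MG, and of ARSA. CTSS differed by 2.05 (adjusted p = 9.35e-03), with 1 to 8 counts in each HCT116 library, and lost the call without HCT116 KO replicate 3 (adjusted p = 0.0531) or without HCT116 WT replicate 1 (0.114). ARSA differed by -0.79 (adjusted p = 1.51e-05), with log2 changes of 0.94 in HCT116 and 0.16 in U-87 MG. Its nearest tested genes had a median of 0.23 in HCT116 and -1.01 in U-87 MG, and their part was not tested. CTSH was fitted at -5.86 (adjusted p = 5.81e-05), a size that depends on the count added before logs because its U-87 MG KO libraries were at 0. With limma on log2(FPKM + 1) the difference was -0.46 for ARSA and -0.10 for CTSH, and neither was called. For GRN the difference was 0.13 (SE 0.063, adjusted p = 0.0882). Over the 38 members other than CTSD that were tested in both lines, the log2 changes had a Pearson r of 0.29 and a Spearman rho of 0.29, against 0.18 and 0.29 over 12239 genes, as a description across genes of lines that share no libraries, and 25 of the 38 were positive in both lines, as were 3689 of the 12239 genes.

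The lines themselves stood far apart in these genes. In WT cells, 36 of the 41 members other than CTSD were called higher in U-87 MG than in HCT116 and 3 lower, where 26.3% of all tested genes were called higher and 24.9% lower. The lines were also sequenced differently, in paired reads for U-87 MG and single reads for HCT116, so line and read layout cannot be told apart. CTSS at 7.11, CTSK at 6.19, LAMP2 at 3.02 and CTSL at 2.73 had the largest log2 differences above 0 among them, with an adjusted p of at most 8.99e-27 (edgeR), and CTSD, given without a test, was at 3.08. The 3 lower ones were CTSZ at -10.35, CTSH at -5.21 and GAA at -1.49. In FPKM, CTSZ averaged 0.0613 ± 0.032 in U-87 MG WT cells and 94.3 ± 3.13 in HCT116 WT cells (n = 3 each), and NELFCD lies antisense over 31.7% of its exon bases. SGSH at 0.22 and ATP6V0A1 at -0.55 were not called. GUSB (0.60) fell under 1.5-fold with RLE factors (0.57), upper-quartile factors (0.47), no low-count filter (0.58), DESeq2 (0.57) and limma on log2(FPKM + 1) (0.465), and at 0.54 to 0.58 without HCT116 WT replicate 2, U-87 MG KO replicate 1 or 3, or U-87 MG WT replicate 2. TFEB (0.69) did so with upper-quartile factors (0.56), with the replicate block (0.55) and with limma (0.42).

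**Figure D3:**
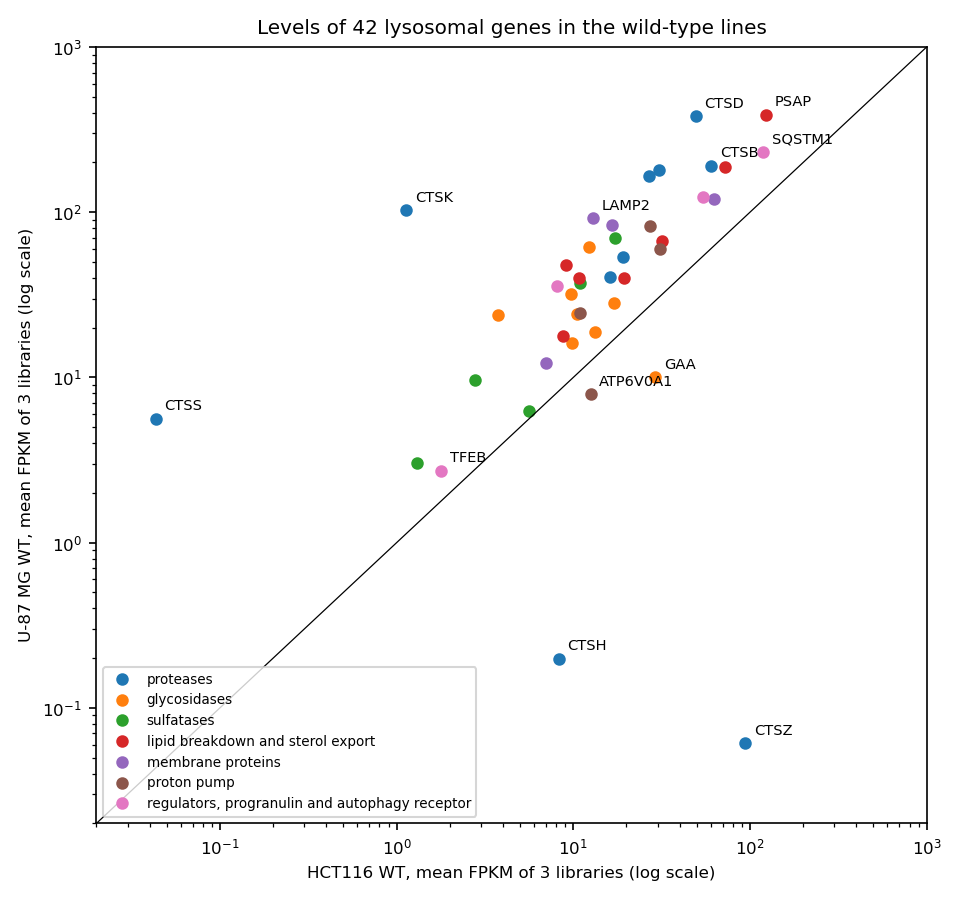
Mean FPKM of the 42 genes in WT cells, U-87 MG on the vertical and HCT116 on the horizontal axis, both logarithmic, with the line of equal levels and colours for roles. Most points lie above the line, CTSS and CTSK are far above it, and CTSZ and CTSH are far below it.

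By level per length, CTSD moved to the head of the list in U-87 MG KO cells. There it averaged 1056 ± 29.05 FPKM, followed by PSAP at 868 ± 24.9 FPKM, with separate ranges, and then by SQSTM1 at 302 and CTSA at 299.7 FPKM, which overlapped. In U-87 MG WT cells, PSAP at 389.8 ± 36.3 FPKM and CTSD at 383 ± 3.39 FPKM overlapped, followed by SQSTM1 at 231, CTSB at 192 and NPC2 at 188 FPKM, the last pair with overlapping ranges. In HCT116, PSAP (153 FPKM in KO cells, 123 in WT cells) and SQSTM1 (132 FPKM in KO cells, 119 in WT cells) led in both groups, and CTSD was at rank 9 in KO cells and rank 8 in WT cells. Members above 100 FPKM numbered 12 in U-87 MG KO cells and 10 in WT cells, and 2 in each HCT116 group. Neighbours in these orders overlapped in 16 pairs in U-87 MG KO cells, 19 in U-87 MG WT cells, 23 in HCT116 KO cells and 20 in HCT116 WT cells.

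In U-87 MG, 3 members lay in stretches of chromosome whose genes were mostly lower in KO cells. The up to 40 tested genes nearest to a member had a median log2 change (KO over WT) between -0.22 and 0.18 for all but 3 members. The neighbours of ARSA on chromosome 22 had a median of -1.01, those of LAMP1 on chromosome 13 a median of -0.80 and those of NPC2 on chromosome 14 a median of -0.44. These 3 were picked out after their values were seen. The genes themselves changed by 0.16, 0.16 and 0.28 and so lay above their neighbours. Over all tested genes, the median was -0.97 on chromosome 22, -0.47 on chromosome 14 and -0.22 on chromosome 13. DNA was not measured, and the part of copy number in these values was not tested.

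**Figure D4:**
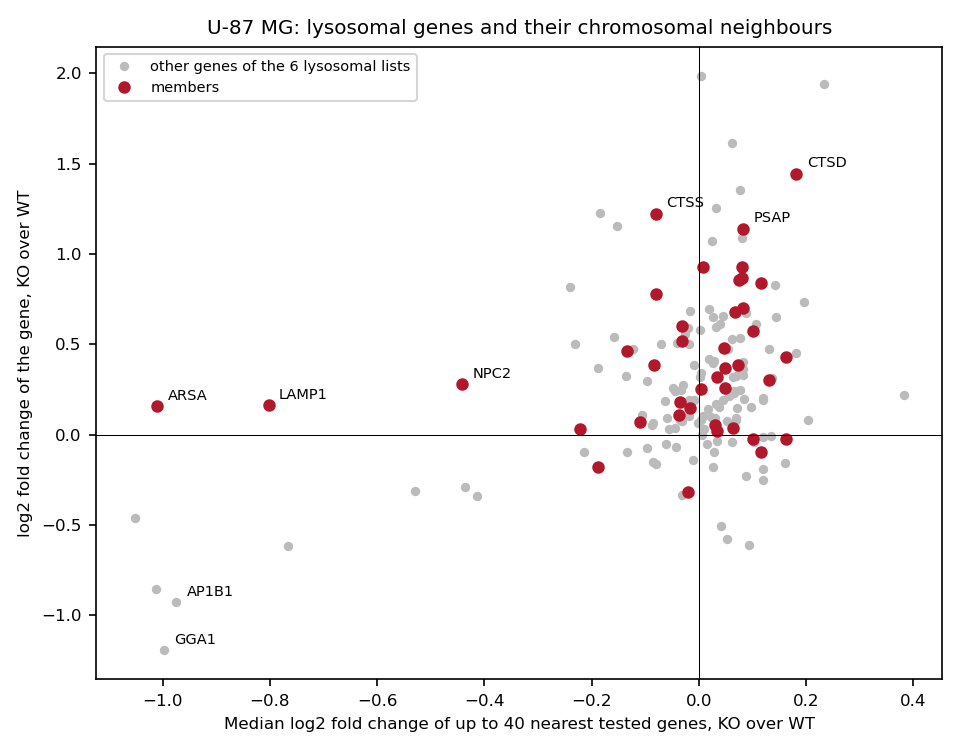
Log2 fold change (KO over WT, U-87 MG) of each member in red and of the genes of 6 further lysosomal lists in grey, against the median log2 fold change of the up to 40 nearest tested genes on the chromosome. ARSA, LAMP1 and NPC2 sit to the left with values above 0, while AP1B1 and GGA1 sit to the left with values below 0.

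Beyond the members, 131 further genes of the lysosome and its pathways were read in 6 lists. In U-87 MG, 23 of the 126 tested were called higher and 4 lower, with a median log2 change of 0.20, where 8.06% and 8.15% of all tested genes were called. In HCT116, 8 of 125 were called higher and 1 lower, with a median of 0.03, where 7.82% and 4.07% of all tested genes were called, so the HCT116 count of higher genes lay under the share of all genes. The hydrolases not among the members had the most calls in U-87 MG, with 10 of 23 higher and 1 lower. FUCA1, the α-fucosidase, averaged 26.4 ± 0.537 CPM in KO cells and 6.63 ± 0.776 CPM in WT cells, a log2 change of 1.99 (adjusted p = 5.43e-14, edgeR, n = 3 each). SMPD1, the acid sphingomyelinase, rose by 0.70. In HCT116, 5 of 24 hydrolases were called higher and 1 lower. FUCA1 rose there by 1.03, IDUA (α-iduronidase) by 1.64, ARSG (a sulfatase) by 0.94 and MANBA (β-mannosidase) by 0.80.

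In the other lists the counts were small, at 1 to 4 higher in each in U-87 MG, and with 8.06% of all tested genes called higher and 8.15% lower they are given as a description. Membrane proteins and transporters had 3 of 20 called higher and 1 lower in U-87 MG. CD63, a tetraspanin, rose by 0.74, SLC17A5, the sialic acid transporter, by 1.25, and PQLC2, a transporter of cationic amino acids, by 0.61. In HCT116, SLC17A5 was the single call among these 20 and rose by 0.85. Further pump genes gave 4 of 17 called higher in U-87 MG, ATP6V0E1 by 0.59, ATP6V1A by 0.61, ATP6V0E2 by 0.60 and ATP6V1G2 by 1.07, and 0 lower. In HCT116, 1 of 16 was called, ATP6V1G2, which rose by 0.78 at 2.30 ± 0.257 CPM in KO cells and 1.30 ± 0.472 CPM in WT cells.

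Sorting genes gave 1 of 23 higher and 2 lower in U-87 MG, where SORT1, the sortilin receptor, rose by 1.23, AP1B1, an adaptor subunit, fell by 0.93 and GGA1, an adaptor for mannose 6-phosphate receptors, fell by 1.19. The nearest tested genes of AP1B1 had a median log2 change of -0.97 and those of GGA1 a median of -0.998. Among genes of nutrient sensing, 2 of 20 were called higher, the Rag GTPases RRAGD by 1.61 and RRAGB by 0.83. For the sorting, nutrient-sensing and autophagy counts in U-87 MG, the shares of all tested genes were 8.06% higher and 8.15% lower. Among autophagy genes, 3 of 23 were called higher, GABARAPL1 and MAP1LC3A, which code for proteins of the autophagosome membrane, by 1.94 and 1.35, and WIPI1, a phosphoinositide-binding protein of early autophagosomes, by 0.65. In HCT116, no sorting or nutrient-sensing gene was called, and OPTN, an autophagy receptor, was the single call among 22 autophagy genes at 1.28 (adjusted p = 2.74e-12, edgeR). By adjusted p alone, 15 of these 22 were higher and 1 lower, where 25.6% and 26.4% of all tested genes were. In U-87 MG, 14 of 23 were higher and 3 lower by that rule, where 25.4% and 28.2% were. The median log2 change of the autophagy genes was 0.29 in HCT116 and 0.31 in U-87 MG, against 0.01 for all tested genes in each line. Among the further genes named, others lie over part of the exon bases of IDUA (13.2%, antisense), ATP6V0E2 (12.8%, antisense) and ATP6V1G2 (13.5%, same strand), and ARSG and WIPI1 lie antisense to each other, so reads could be shared.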

How the data were processed

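Per the labels, mRNA libraries were prepared with a stranded kit and read in 50 bp. The submitters' processing notes name STAR 2.5.2 for alignment, GRCh38 as the genome, featureCounts 1.6.1 and Cufflinks 2.2.1. Deposited counts, from featureCounts, are whole numbers for each gene symbol, and the deposited FPKM come from Cufflinks with refGene, per the labels. How the counting treated strand, read pairs and reads with several alignments is not stated in the sources used here.

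Counts were tested with edgeR 4.0.16 (quasi-likelihood F-test, robust, TMM factors, filterByExpr, Benjamini-Hochberg adjustment over all genes tested) in R 4.3.3, for KO against WT on the 6 libraries of a line, and for the difference between lines and the WT contrast on all 12. Calls followed the study's thresholds (a fold above 1.5, an adjusted p under 0.05, a mean above 0.5 FPKM) without its limit to protein-coding genes. CPM use TMM factors of the 12 libraries. Members and lists were chosen with earlier results of these data known. Values per library are given for CTSD, called members, TFEB and TFE3, and of each further list up to 4 called genes with the smallest adjusted p are named. Some genes that this rule takes are not reported here. In HCT116, CTSD was tested like the other members. Alternatives were DESeq2 1.42.0, limma 3.58.1 on log2(FPKM + 1) or log2(FPKM + 0.1), other scaling, filters and thresholds, a replicate block and leaving out each library. Scripts were tested on simulated counts. Positions are GENCODE release 44 on GRCh38.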

Additional observations from a re-analysis of the deposited data

Results flagged for a closer look

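The tested difference between the KO effects of the lines (U-87 MG minus HCT116, edgeR) is what drew attention to 11 members, and each rests on 3 libraries per group. MAN2B1 differed by 0.84, GLA by 0.81, NAGLU by 0.75 and NEU1 by 0.68 among the glycosidases. ASAH1 differed by 0.77 and PSAP by 0.76 in lipid breakdown. CTSS differed by 2.05, CTSL by 0.61 and CTSA by 0.60 among the proteases. CTSS had 1 to 8 counts in each HCT116 library, and its call was lost without HCT116 KO replicate 3 or without HCT116 WT replicate 1. CTSH and ARSA differed by -5.86 and -0.79, and for CTSH the U-87 MG KO libraries held 0 counts, so that the size is not a measurement of the fold.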

How the results depend on the processing

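Of the 11 members called higher in U-87 MG and the 2 in HCT116, CTSC was the single gene to lose its call under the other tools, scalings, filters and left-out libraries, with limma. With the adjusted p alone, the counts became 26 higher and 2 lower in U-87 MG, 20 higher and 9 lower in HCT116 and 19 higher and 6 lower for the difference between lines. With a fold above 2 they became 2 higher in U-87 MG, 0 higher in HCT116 and 1 higher and 1 lower for the difference. With limma on log2(FPKM + 1), filtered or not, 0 members were lower in the difference. Leaving out each library gave 11 to 12 higher in U-87 MG, 2 to 3 in HCT116 and 8 to 11 in the difference. Without U-87 MG WT replicate 3 the same 11 genes were called in U-87 MG.

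The U-87 MG median of 0.32 became 0.36 with upper-quartile factors, 0.29 without the low-count filter, 0.30 with DESeq2, 0.36, 0.37 and 0.34 with limma on log2(FPKM + 1), on log2(FPKM + 0.1) and without a filter, 0.295 with all 12 libraries, and 0.28 to 0.34 leaving out each library. The HCT116 median of 0.15 became 0.11 without the filter, 0.114 with DESeq2, 0.056, 0.094 and 0.052 with limma in the same order, and 0.11 to 0.14 leaving out each library. The U-87 MG medians without a filter, with DESeq2 and with all 12 libraries cover 41 members, against 39 for the 0.32, as CTSH and CTSZ enter. The HCT116 medians without a filter and with DESeq2 cover 42 members, against 41 for the 0.15, as CTSS enters.

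Signs turned in members that were not called. In HCT116, MAN2B1 (0.01) was -0.0025 without the filter and -0.026, -0.028 and -0.026 with limma, and ATP6V0D1 (0.00) was -0.0022 with RLE factors, -0.011 without the filter, -0.0081 with DESeq2 and -0.055, -0.057 and -0.055 with limma. In U-87 MG, upper-quartile factors gave 0.017 for LIPA and 0.016 for ATP6V0A1, which was 0.0060, 0.0066 and 0.0060 with limma. Leaving out each library gave, in HCT116, GUSB -0.050 to 0.0048, NEU1 -0.081 to 0.057, MAN2B1 -0.026 to 0.050, ATP6V0D1 -0.021 to 0.030, ATP6V1H -0.098 to 0.0032 and TFEB -0.031 to 0.197, and in U-87 MG, TFEB -0.146 to 0.111 and TFE3 -0.0034 to 0.070.

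Deviations of KO and WT libraries of the same number correlated at 0.105, 0.083 and 0.283 in HCT116 and 0.031, 0.0014 and -0.011 in U-87 MG. Libraries of different numbers gave -0.184 to 0.113 in HCT116 and -0.025 to 0.024 in U-87 MG. In HCT116, KO and WT replicate 3 had the highest value, so whether the numbers pair the libraries of that line is not settled. With the replicate block, 11 members were called higher in U-87 MG and 2 in HCT116, and the WT contrast called 36 higher of 37 with CTSD counted, without TFEB (0.55). In that contrast upper-quartile factors moved all genes by -0.13. CTSH and CTSZ in U-87 MG and CTSS in HCT116 had too few counts to be tested within that line. The causes of these shifts were not tested.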
